A study of Homo sapiens with 12 samples.

Results

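The peaks described here are regions of H3K27ac, acetylation of lysine 27 on histone H3, in 6 of the 12 samples of a chromatin immunoprecipitation sequencing series. All 6 are lists from H2009, a human lung adenocarcinoma cell line. Of these, 4 libraries carry the labels Empty, Control, e3KRAB1 and e3KRAB2, with 1 library for each label, and 2 libraries are untreated H2009, replicates 1 and 2. They are called the labelled and the untreated lists below. Per the labels, all 6 were grown in the same medium, received no treatment and were precipitated with the same antibody. The labels do not say whether the 4 labelled libraries carried a vector, what e3 stands for, or whether any of the libraries came from separate cultures. KRAB is the usual name of a repressor domain that is fused to DNA-binding proteins to silence a chosen site. The peak names in the library labelled e3KRAB2 carry the tag Ctrl2, which does not match that label, so no direction is drawn here between the 4 labels.

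H3K27ac is placed on histones by the acetyltransferases EP300 and CREBBP and is removed by histone deacetylases. It lies on the nucleosomes beside active promoters and enhancers, and distinguishes active enhancers from those that carry only H3K4me1. A deposited peak is a stretch of the genome where the authors' peak caller found more reads than in the local background, so a region that is missing from a list fell under that caller's threshold and need not lack the mark. The lists give no read counts, so the depth of each library is unknown.

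The labelled lists were short. On chromosomes 1 to 22 and X they held 1960 peaks (Empty), 3250 (Control), 2315 (e3KRAB1) and 1375 (e3KRAB2), against 26887 and 26412 in untreated replicates 1 and 2. Every labelled list was thus shorter than either untreated list. The exact two-sided permutation test on peak number, over the 15 ways to choose 2 of the 6 libraries, gave p = 0.0667, the smallest value this design allows (0.133 adjusted over 4 library-level tests). Such a p-value says only that the observed split gave the largest difference of the 15, whatever its size. It cannot tell technical variation apart from other differences between the libraries. In height and width the called peaks of both groups overlapped. The median fold enrichment over local background, the authors' own value per peak, was 5.20 (Empty), 5.06 (Control), 5.26 (e3KRAB1) and 5.38 (e3KRAB2), against 5.27 and 5.29 in the untreated lists (exact permutation p = 0.6). The median width was 345.5, 356, 345 and 336 bp in the same order of labels, against 347 and 373 bp in untreated replicates 1 and 2 (exact permutation p = 0.267). Cut to the 1375 peaks with the highest −log10 q in each list, the lists kept unequal parts of themselves: 70.2%, 42.3%, 59.4% and all of Empty, Control, e3KRAB1 and e3KRAB2, against 5.11% and 5.21% of untreated replicates 1 and 2. The untreated cuts are therefore taken from higher up their lists. Median fold in the cuts was 5.59, 5.77, 5.72 and 5.38 in Empty, Control, e3KRAB1 and e3KRAB2, against 8.62 and 8.48 in untreated replicates 1 and 2, and median width was 364, 405, 375 and 336 bp against 590 and 624 bp.

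Most acetylated regions of untreated H2009 were not called in any labelled library, and the tallest and widest were called more often than the rest. Untreated peaks that overlap by at least 1 bp were merged into regions, and 16974 of the 34946 regions (48.6%) held a peak of both replicates. Of these 16974 regions, 4539 had a peak in at least 1 labelled list (26.7%). By number of labelled lists, 12435 regions had a peak in 0 (73.3%), 2777 in 1 (16.4%), 1043 in 2 (6.14%), 501 in 3 (2.95%) and 218 in all 4 (1.28%). The share recovered was 9.28% in Empty, 15.5% in Control, 11.1% in e3KRAB1 and 6.81% in e3KRAB2, which is the order of the lists' lengths. Between 31.8% (e3KRAB2) and 45.8% (Control) of the regions recovered in a list were in that labelled list alone.

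Each further labelled list went with higher untreated values. With 0, 1, 2, 3 and 4 lists, the median untreated −log10 q was 5.99, 8.04, 9.56, 11.4 and 14.7. The median untreated fold was 5.54, 6.23, 6.72, 7.10 and 7.66, and the median region width was 513, 629, 701, 730 and 824 bp. All 3 measures thus kept the same order over the 5 classes, although their quartiles overlapped between neighbouring classes. Across the 16974 regions the Spearman correlation with the number of lists was 0.428 for −log10 q, 0.314 for width and 0.308 for fold; the untreated fold of replicate 1 had a correlation of 0.571 with that of replicate 2 over the same regions, which share their libraries.

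**Figure D1:**
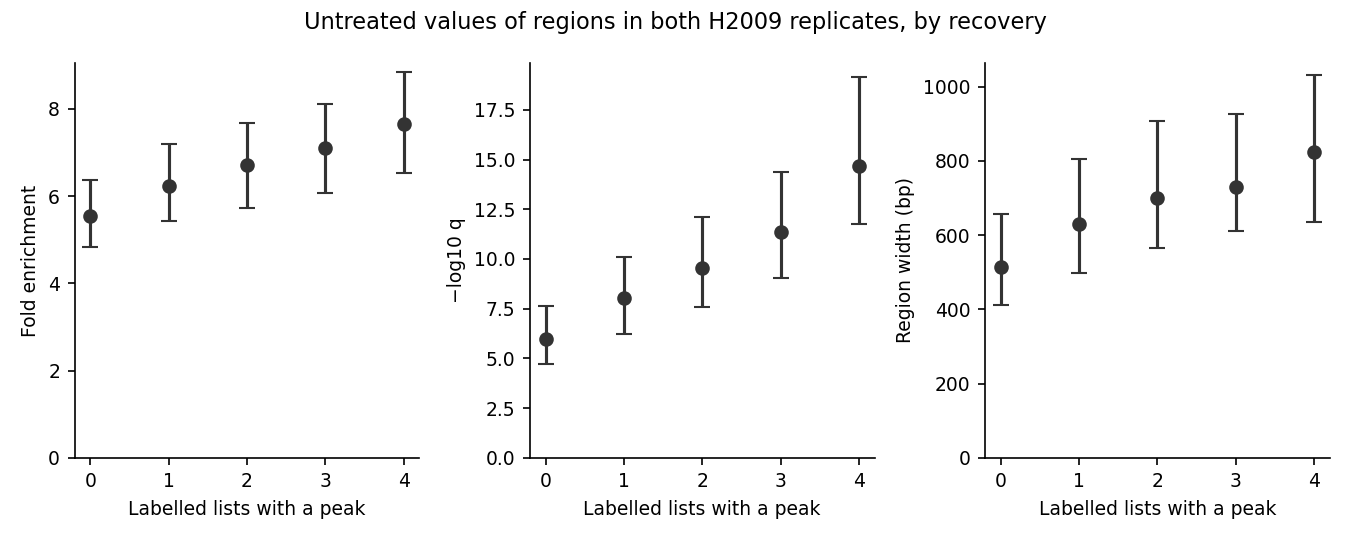
Untreated fold enrichment, −log10 q and width in bp of the 16974 regions found in both untreated H2009 replicates, by the number of labelled lists with a peak there. Points are medians and bars run from the lower to the upper quartile; the median −log10 q lies at 5.99 for regions in no labelled list and at 14.7 for those in all 4.

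Recovery climbed steeply at the top of the untreated −log10 q range. In the lowest of 10 equal classes, 5.47% of regions had a peak in at least 1 labelled list and 0 of 1699 had one in all 4, and in the highest class the shares were 70.2% and 9.89%. Even so, 506 of the 1698 regions in that highest class were in no labelled list. Fold alone separated recovered from lost regions less than −log10 q did: its lowest class reached 12.96% and its highest 58.6%. Regions were split into 3 equal classes of −log10 q and of width. In the class of highest −log10 q, 60.0% of the widest regions were recovered in at least 1 list and 30.1% of the narrowest, with median folds of 7.02 and 7.003 and median −log10 q of 10.4 and 9.23. In the class of lowest −log10 q, the same shares were 13.4% and 7.03%, with median −log10 q of 4.79 and 4.40. Wider regions thus also had a somewhat higher −log10 q within a class, and the 2 were not separated further.

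**Figure D2:**
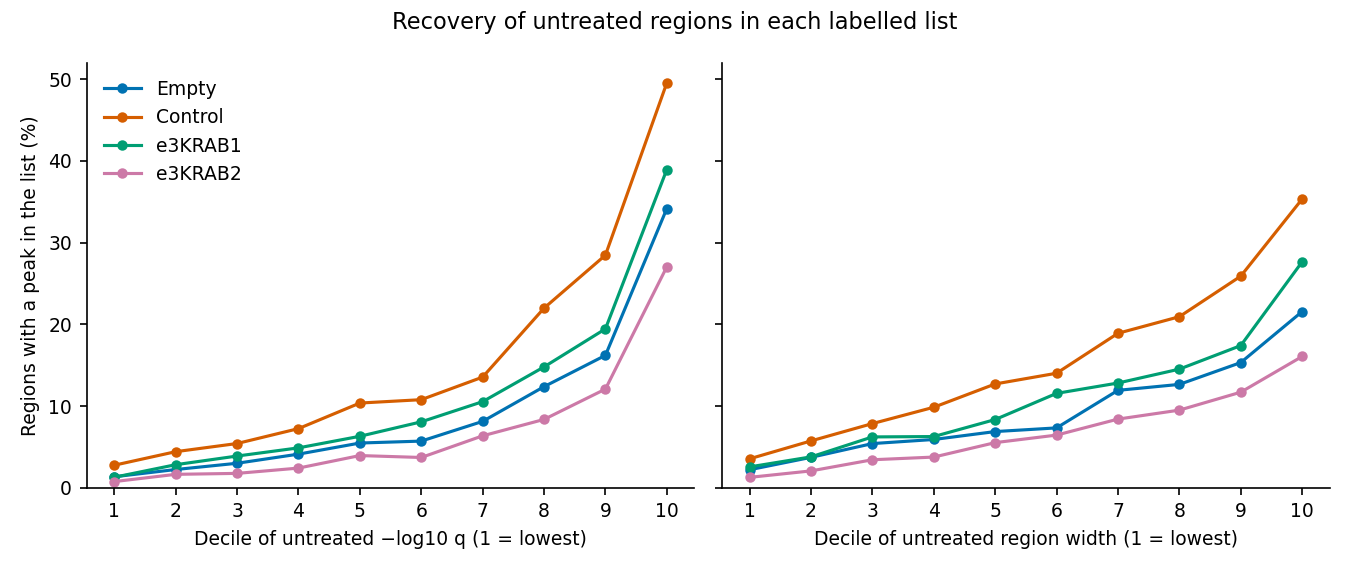
Share of the untreated regions with a peak in each labelled list, in percent, by decile of untreated −log10 q (left) and of region width (right). Each line is 1 labelled list; every list stays under 3% in the lowest −log10 q decile and reaches between 27.03% (e3KRAB2) and 49.5% (Control) in the highest.

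The recovered regions more often had a peak in all lists of the other cancer lines of the series. These lines are H358 (lung adenocarcinoma, 2 lists), HCC95 (squamous lung carcinoma, 1 list), Ishikawa (endometrial carcinoma, 2 lists) and BICR31 (head and neck squamous carcinoma, 1 list). A peak in all 6 of their lists was found at 87.2% of the regions in all 4 labelled lists and at 41.7% of those in none. Over all 16974 regions the share was 50.8%. Regions with no peak in any other line numbered 842 among the 12435 in no labelled list (6.77%) and 0 among the 218 in all 4. Over all 16974 regions they numbered 898 (5.29%). The share with a peak in all 6 lists was 70.1%, 82.2% and 85.8% for 1, 2 and 3 labelled lists, so it grew with each class. The classes also differ in −log10 q and width, as given above, and neither was held fixed here.

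Within the regions it recovered, a labelled list gave lower values than the untreated lists. The list's fold was under the untreated mean in 83.0% (Empty), 86.7% (Control), 85.7% (e3KRAB1) and 84.7% (e3KRAB2) of them, and its −log10 q in 94.0% to 94.6%. In e3KRAB2, for example, the median fold at its 1156 recovered regions was 5.36, against 6.87 at the same regions in untreated H2009. Summits lay farther apart as well: the median distance from a labelled summit to an untreated one ran from 99 to 109.5 bp over the 4 lists, and that between the untreated replicates at the same regions from 76 to 79 bp.

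Single regions show both ends of this order. The tallest region of untreated H2009 by mean fold, chr3:73159728-73160304 (hg19, 577 bp), was called in all 6 H2009 lists and in all 6 lists of the other lines. Its fold was 12.5 in Empty, 12.9 in Control, 7.92 in e3KRAB1 and 8.34 in e3KRAB2, against 19.3 in both untreated replicates. All 4 labelled values were below both untreated ones. A region on 17q, chr17:41465837-41466792, had folds of 12.6, 11.2, 10.5 and 11.5 in Empty, Control, e3KRAB1 and e3KRAB2, against 14.5 and 13.9 in untreated replicates 1 and 2. At chr2:33141153-33141629 the groups met: folds were 13.4, 13.3, 14.6 and 12.4 in the labelled lists, in the same order, against 14.3 and 13.8, and −log10 q was 26.4, 25.6, 29.1 and 20.4 against 23.5 and 22.9. The other 5 of the 8 tallest regions in all 4 lists, on chromosomes 1, 15, 17 and 20, had untreated mean folds between 10.9 and 12.4 and were lower in every labelled list than in either untreated one. These regions were chosen for their untreated fold, which by itself favours a lower value in the other lists. Repeat content and the authors' handling of reads with several matches were not examined at these regions, and their part was not tested. The 5 regions of lowest untreated fold in all 4 lists went both ways. Mean fold was 3.83 labelled against 3.44 untreated at chr5:33312413-33313168 and 4.50 against 4.11 at chr10:134260517-134261828. At the rest it was lower in the labelled lists, with 4.42 against 4.53, 3.65 against 3.87 and 3.30 against 3.69. The highest labelled fold at the other 5 tall regions was that of Control at chr17:28804364-28805106, 9.22, against 11.5 and 10.9 in untreated replicates 1 and 2.

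Regions of nearly the same height were in no labelled list. The tallest of them, chr2:58467877-58468541, had folds of 10.7 and 13.04 in untreated replicates 1 and 2 and no peak in Empty, Control, e3KRAB1 or e3KRAB2. Next came chr1:84326268-84326753 with 10.5 and 12.8, and chr13:114047915-114048485 with 10.7 and 11.5. The 8 tallest such regions had mean folds from 10.5 to 11.9, and 6 of them were called in all 6 lists of the other lines. Their mean −log10 q, 15.1 to 22.2, overlapped with that of the 8 tallest regions in all 4 lists, 18.4 to 103. Of the 50 untreated regions with the highest fold, 13 were in all 4 labelled lists and 6 in none, and of the 50 with the highest −log10 q, 33 were in all 4 and 0 in none.

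A few low regions were called everywhere. Among the 218 regions in all 4 labelled lists, 22 had an untreated fold under the median of all regions (5.75) and 7 had a −log10 q under its median (6.56). The lowest, chr5:33312413-33313168, had folds of 3.98, 3.51, 3.69 and 4.17 in Empty, Control, e3KRAB1 and e3KRAB2, against 3.32 and 3.56 in untreated replicates 1 and 2. At chr6:58778342-58779225 the folds overlapped, at 3.91, 3.43, 3.48 and 3.77 against 3.43 and 4.32. There, −log10 q was 25.7, 18.7, 18.2 and 16.7 in the labelled lists, in the same order, above the 2.86 and 7.07 of the untreated lists. That region lies next to the longest stretch of chromosome 6 in which no list of the series has a peak.

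Such stretches were used to describe place, because centromere positions of the files' genome build were not used here. On each of the 23 chromosomes the longest interval without a peak in any of the 12 lists was 3.0 to 21.1 Mb long, and on 5 of them it began at the first base. A region under 5 Mb from it is called near. Near regions made up 7.51% of the 16974 untreated regions. By number of labelled lists their share was 7.07%, 7.42%, 8.92%, 8.98% and 23.4% for 0 to 4 lists, so it stood out in the last class. Of the 1274 near regions, 4.0% were in all 4 labelled lists, and 1.61% would be if each region had the recovery of its −log10 q decile. Of the 15700 other regions, 1.06% were in all 4, with 1.26% from their deciles. The highest decile is broad, from 11.3 to 184, and recovery in all 4 lists varied within it. It was 66% for the 50 regions of highest −log10 q and 14.2% for the 1000 highest. Differences in −log10 q within a decile are therefore not accounted for in any share from the deciles.

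By chromosome arm, recovery was set beside the share from −log10 q. Over 41 arms, the share of untreated regions in at least 1 labelled list ran from 12.7% on Xq to 39.6% on 5p, and the share that the arm's −log10 q deciles would give lay within the 95% Wilson interval on 38 of them. These intervals, like all of those given here, cover counting error only. They are wide on arms with few regions, so a share inside one need not be close. On 18q, with 86 regions, 12.8% were recovered against 19.1% from the deciles, which is inside. The decile share lay outside the interval on 1q, with 37.1% against 32.4% from the deciles, 19p, with 32.4% against 25.8%, and Xq, with 12.7% against 22.4%. Regions in all 4 lists were gathered on a few arms. Arm 5p held 31 of the 218 with 2.07% of all regions, 1q held 34 with 5.35%, and 17q held 24 with 5.71%. On 5p 8.83% of the 351 regions were in all 4 lists and the deciles would give 3.52%. On 17q the values were 2.47% and 2.67%, and on Xq 0 of 267 regions were in all 4. As for near regions, these shares take no account of differences in −log10 q within a decile. The recovered share on 5p was 23.1%, 26.2%, 24.5% and 19.1% in Empty, Control, e3KRAB1 and e3KRAB2, so no single list made that arm stand out. Differences in copy number between arms were not measured, and their part in these shares was not tested.

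**Figure D3:**
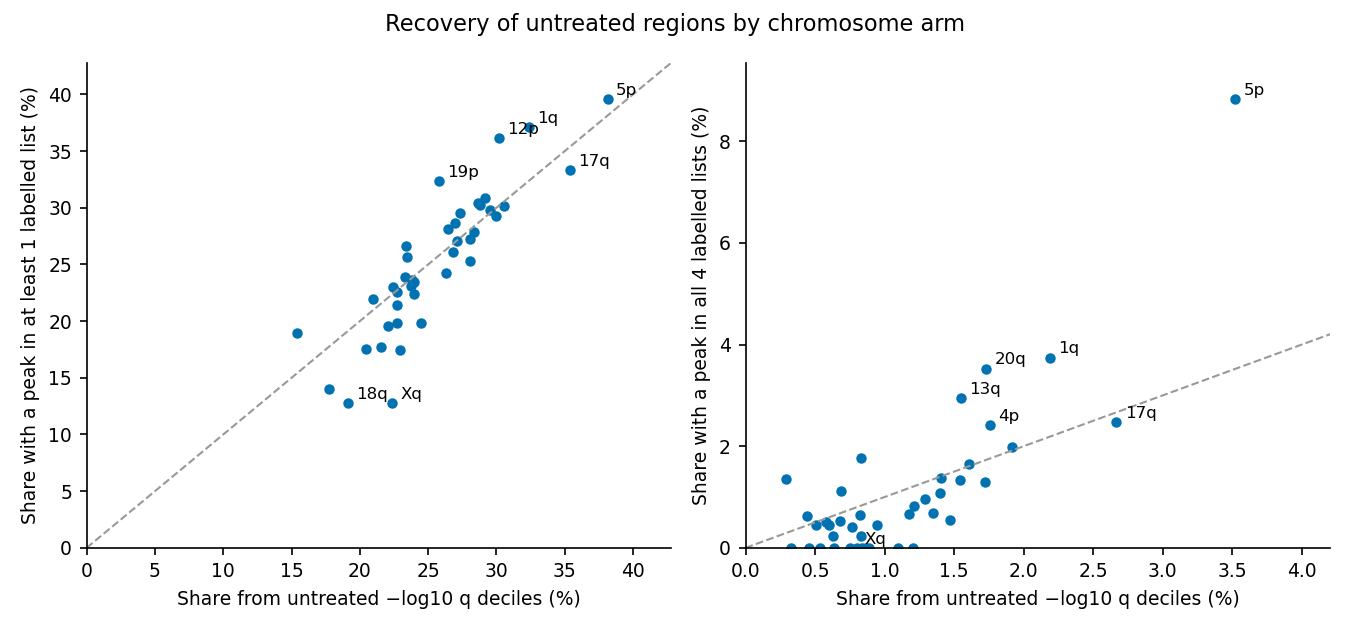
Share of untreated regions recovered on each of 41 chromosome arms (vertical axis, percent) against the share that the arm's untreated −log10 q deciles would give (horizontal axis, percent), for at least 1 labelled list (left) and for all 4 (right). Each point is an arm and the dashed line marks equal shares; 5p lies near the line on the left (39.6% against 38.1%) and above it on the right (8.83% against 3.52%).

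In windows of 10 Mb with at least 40 regions, the highest recovery in at least 1 list was in 19:20-30 Mb, with 28 of 52 regions (53.8%, 28.0% from the deciles). It ranked first of 183 such windows. The longest peak-free interval of the chromosome, chr19:24271066-27731787, lies inside that window.

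The labelled lists also held peaks that neither untreated list had, and those shared by all 4 labelled lists lay mostly within 5 Mb of the large peak-free intervals. Without an untreated peak were 205 peaks of Empty (10.5%), 329 of Control (10.1%), 213 of e3KRAB1 (9.20%) and 111 of e3KRAB2 (8.07%). Merged, the labelled lists gave 5926 regions, of which 614 were absent from both untreated lists (10.4%). Of the 4055 regions in 1 labelled list 503 were absent, of 1082 in 2 lists 45, of 518 in 3 lists 16, and of 271 in all 4 lists 50 (18.5%). The share was therefore lowest among regions in 2 or 3 lists and highest among those in all 4. The 503 in a single list had a median −log10 q of 3.67, and the 50 in all 4 lists one of 10.0.

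**Figure D4:**
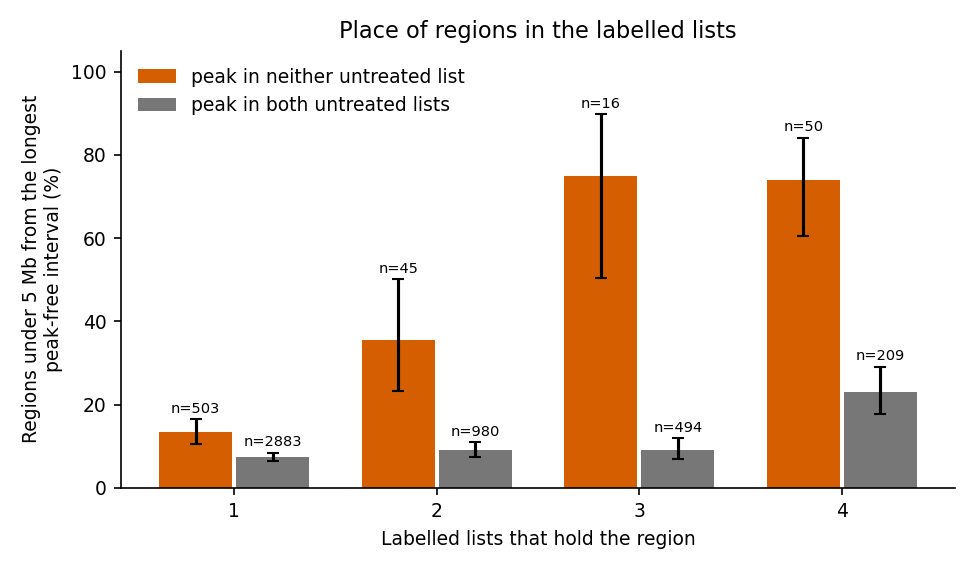
Share of labelled-list regions that lie under 5 Mb from the longest peak-free interval of their chromosome, in percent, by the number of labelled lists, for regions with a peak in neither untreated list and in both. Bars are shares, lines are 95% Wilson intervals and n is the number of regions; for regions in all 4 lists the bars stand at 74.0% and 22.97%.

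Near a peak-free interval were 74.0% of the 50 absent regions in all 4 lists (95% Wilson interval 60.4 to 84.1), against 22.97% (17.8 to 29.1) of the 209 in all 4 lists and both untreated lists. Over all 5926 labelled regions the share was 9.97%. Of the 50, 24 lay within 1 Mb. Chromosomes 9 and 10 held 8 of the 50 each and chromosome 2 held 6. Their widths ran from 303 to 1093 bp with a median of 539 bp. A width of 530 to 560 bp, a class chosen after the values were seen, was found for 26 of the 50 (52.0%), against 9.09% of the 209. Their mean fold in the labelled lists had a median of 7.50 against 5.56 for the 209, and their −log10 q 10.0 against 6.03. In other lines, Ishikawa had a peak at 40 and 37 of the 50 in its 2 lists and BICR31 at 35, but H358 only at 13 and 7 and HCC95 at 10. At the 209 the share in each of these 6 lists was between 91.4% and 98.1%. Repeat content and the authors' handling of reads with several matches were not examined, and their part in these regions was not tested.

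Most of the tallest absent regions show this place. On chromosome 16, chr16:35239402-35239945 had folds of 14.3, 10.7, 11.6 and 8.91 in Empty, Control, e3KRAB1 and e3KRAB2 and lies 0.0107 Mb from the interval. On chromosome X, chrX:61839038-61839585 had 14.2, 11.5, 11.5 and 12.95, and chrX:58561152-58561689, on the other side of the interval, had 10.2, 10.7, 12.5 and 11.2. Both had −log10 q values from 18.4 to 31.3 in every labelled list and no untreated peak. At chr9:42818849-42819393 the folds were 12.4, 11.5, 9.70 and 8.81. An exception in place was chr1:91852629-91853349, with folds of 12.03, 11.3, 11.8 and 10.4, which lies 29.6 Mb from the interval of its chromosome. Also far from theirs were chr8:70602142-70602695, at 23.8 Mb, and chr5:71146555-71147105, at 21.7 Mb. In all, 30 of the 50 regions had a mean fold over 7, and 10 had one under 5.

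These regions weigh at the top of the labelled lists. Of the 100 peaks with the highest −log10 q in each, 30 (Empty), 32 (Control), 34 (e3KRAB1) and 28 (e3KRAB2) had no untreated peak, and 28, 27, 29 and 24 of those were near. In the other direction, of the 100 highest peaks of untreated replicates 1 and 2, 3 and 6 had no peak in any labelled list and 42 and 41 had one in all 4. The highest −log10 q of all 6 lists was at the same place, chr1:121484057-121485576, at the edge of the interval of chromosome 1. It was 284, 282, 287 and 277 in Empty, Control, e3KRAB1 and e3KRAB2, against 179 and 188 in untreated replicates 1 and 2. Fold ran the other way there, at 8.80, 8.86, 9.13 and 9.48 against 10.9 and 10.3. Near peaks made up 12.7%, 11.4%, 12.5% and 15.2% of the labelled lists, in the same order, against 7.11% and 7.13% of the untreated lists. Among the 1375 highest peaks of each list the shares were 14.9%, 16%, 16.1% and 15.2% against 10.1% and 10.1%.

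The resemblance of the labelled lists to each other in called bases changed with these peaks. At 1375 peaks each, the base-pair Jaccard index (shared over combined called bases) averaged 0.170 over the 6 labelled pairs (0.150 to 0.189), 0.266 for the untreated pair, and 0.125 over the 8 pairs of a labelled with an untreated list (0.109 to 0.148). Pairs of 1 kind exceeded mixed pairs by 0.0593 on average (exact one-sided permutation p = 0.0667, the smallest possible; 0.133 adjusted over the 4 tests). With near peaks left out and 1166 peaks each, the averages were 0.128 for labelled pairs (0.109 to 0.148), 0.254 for the untreated pair and 0.120 for mixed pairs (0.104 to 0.145). In this index labelled pairs then overlapped in range with mixed pairs, and the excess was 0.0264 (exact permutation p = 0.133).

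Genes with known functions were looked up at their starts. The files carry no gene names and no annotation of hg19 was at hand, so the starts of the 52 genes reported here were placed from general knowledge to the nearest 1 kb, and any peak within 2 kb counted. Their chromosome was the same as in RefSeq for 52 of 52, and the order along the chromosome for 77 of 77 pairs of genes, but a start misplaced by more than 2 kb would be missed. Of the 52 starts, 12 had a peak in at least 1 labelled list and 26 in both untreated lists. Among those 26, 10 were in a labelled list (38.5%), beside 26.7% of all untreated regions. The 2 shares are not measured alike. A gene start takes any peak within 2 kb, whereas a region needs a labelled peak that overlaps it. By list, 8, 7, 6 and 6 of the 52 starts had a peak in Empty, Control, e3KRAB1 and e3KRAB2.

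All 8 housekeeping starts reported here were acetylated in both untreated lists, and 4 appeared in labelled ones. B2M, the light chain of MHC class I, was in all 6 lists, with folds of 5.04, 4.98, 5.50 and 7.23 in Empty, Control, e3KRAB1 and e3KRAB2, against 5.26 and 5.82 in untreated replicates 1 and 2. EEF1A1, a translation elongation factor, was higher in each of the 3 labelled lists that had it (7.09 in Control, 5.16 in e3KRAB1 and 5.96 in e3KRAB2) than in the untreated lists (4.36 and 3.99). ACTB, cytoskeletal actin, was in Empty and e3KRAB1 and TBP, the TATA-binding protein, in e3KRAB1 only. GAPDH, HPRT1, RPLP0 and PGK1 had no labelled peak; RPLP0, a ribosomal stalk protein, had untreated folds of 7.49 and 5.11, above those of B2M in 1 replicate and below them in the other.

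The promoters of 4 of these genes are shown, of which B2M and EEF1A1 were called in labelled lists and GAPDH and RPLP0 in untreated lists only. Each runs from 250 bases before to 50 after the RefSeq start (GRCh38.p14, 5′ to 3′ on the gene's strand). Capitals mark CpG, the dinucleotide whose density defines CpG islands.
B2M (chr15:44711267-44711566, plus strand): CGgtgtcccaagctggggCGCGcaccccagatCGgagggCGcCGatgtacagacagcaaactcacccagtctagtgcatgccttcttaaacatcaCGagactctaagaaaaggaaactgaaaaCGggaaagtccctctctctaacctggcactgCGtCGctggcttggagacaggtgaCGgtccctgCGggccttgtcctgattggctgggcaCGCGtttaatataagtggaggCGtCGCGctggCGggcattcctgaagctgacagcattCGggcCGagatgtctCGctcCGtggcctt
EEF1A1 (chr6:73520983-73521282, minus strand): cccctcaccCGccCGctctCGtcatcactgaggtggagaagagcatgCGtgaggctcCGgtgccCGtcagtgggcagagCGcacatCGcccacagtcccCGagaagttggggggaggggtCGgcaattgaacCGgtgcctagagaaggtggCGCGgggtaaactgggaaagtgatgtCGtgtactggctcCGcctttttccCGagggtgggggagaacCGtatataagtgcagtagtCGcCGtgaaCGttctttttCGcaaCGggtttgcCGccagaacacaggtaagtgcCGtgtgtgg
GAPDH (chr12:6535014-6535313, plus strand): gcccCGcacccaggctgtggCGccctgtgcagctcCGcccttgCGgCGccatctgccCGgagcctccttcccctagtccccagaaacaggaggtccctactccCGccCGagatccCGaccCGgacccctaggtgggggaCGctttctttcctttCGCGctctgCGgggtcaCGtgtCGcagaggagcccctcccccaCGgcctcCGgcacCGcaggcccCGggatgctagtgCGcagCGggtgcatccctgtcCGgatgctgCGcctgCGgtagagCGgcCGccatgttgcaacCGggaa
RPLP0 (chr12:120201062-120201361, minus strand): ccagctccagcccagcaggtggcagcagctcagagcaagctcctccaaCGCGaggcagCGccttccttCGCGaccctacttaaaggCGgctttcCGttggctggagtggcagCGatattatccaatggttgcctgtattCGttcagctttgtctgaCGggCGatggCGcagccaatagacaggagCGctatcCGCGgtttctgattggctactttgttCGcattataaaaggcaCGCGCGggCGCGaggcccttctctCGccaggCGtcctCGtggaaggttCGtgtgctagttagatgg

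All 4 are rich in CpG, with 22 in B2M, 24 in EEF1A1, 28 in GAPDH and 25 in RPLP0, against a median of 14 over 27305 RefSeq promoters of that length. Over these 4, the genes called in labelled lists had fewer CpG than the other two. Over the genes of the lists whose promoters were at hand, the median was 22 for 5 with a peak in a labelled list and both untreated lists (16 to 33), 26.5 for 12 with a peak in both untreated lists only (4 to 38), and 7 for 13 with no peak in any H2009 list. The letters TATAAA, searched on both strands, were in 0 of the 5, 33.3% of the 12, 23.1% of the 13 and 11.95% of all promoters. A match of letters is not a bound site.

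The starts of the growth genes MYC, CCND1, EGFR, MET and ERBB2, which code for a transcription factor, a cyclin and 3 receptor kinases, had no peak in Empty, Control, e3KRAB1 or e3KRAB2 and a peak in both untreated lists. Over all untreated regions, 73.3% had no labelled peak. MYC had untreated folds of 3.11 and 3.14, the lowest of the 5, and ERBB2 had the highest mean, with 7.08 and 5.45. Their mean untreated −log10 q was 4.06 for MYC, 4.88 for CCND1, 8.36 for EGFR, 12.7 for ERBB2 and 12.98 for MET, so that ERBB2 and MET lay in the decile where 70.2% of regions were recovered and MYC in the one where 5.47% were.

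Of the immediate early and stress genes, 1 was in all 6 lists. GADD45A, a DNA damage response gene, had folds of 4.21, 4.15, 4.65 and 5.09 in Empty, Control, e3KRAB1 and e3KRAB2, all below the 5.45 and 5.55 of untreated replicates 1 and 2. Of the 10 immediate early and stress genes, 4 had a labelled peak (JUN, KLF6, GADD45A and ATF3), beside 12 of all 52 starts. In both untreated lists were 4 (JUN, KLF6, GADD45A and FOS), beside 26 of the 52. ATF3 had an untreated peak in replicate 1 only. FOS had no labelled peak, nor did EGR1 and DUSP1, which were in 1 untreated list each. KLF6 was in Control with 5.34, against 4.02 and 4.87 untreated, and JUN in Empty, Control and e3KRAB1 with 3.61, 4.16 and 3.19, against 4.21 and 4.58. None of the 7 interferon response genes reported here was in a labelled list. Over all untreated regions, 73.3% had no labelled peak. ISG15, IFIT1 and IFIT3 were in both untreated lists, with mean untreated −log10 q of 6.37, 2.73 and 3.21. MX1 and IRF1 were in 1 untreated list each, and OAS1 and IFI6 in no H2009 list. ISG15 lies in the decile where 19.8% of regions were recovered and IFIT3 in the one where 5.47% were. At the start of IFIT1 no merged region held peaks of both replicates, so it has no decile.

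Cell type markers were checked in the same way. Both untreated lists had the epithelial genes EPCAM, CDH1, KRT18, KRT19 and MUC1, 5 of 9, beside 26 of all 52 starts. KRT7 had a peak in untreated replicate 2 only, and KRT8, ELF3 and CLDN4 had none in any H2009 list. Labelled lists had EPCAM (Empty 4.82, Control 5.54, e3KRAB2 5.06, against 7.30 and 5.16 untreated) and CDH1 (Control 4.32, e3KRAB2 4.52, against 4.40 and 5.03 untreated). The lung genes NKX2-1, FOXA1, FOXA2 and SFTPB had no untreated peak, 0 of 4, and FOXA1 had one in Empty (4.39). No H2009 list had a peak at the blood genes PTPRC and CD3E, the liver gene ALB or the squamous gene TP63. The other squamous gene, SOX2, had a peak in untreated replicate 2 only (3.72). Of the mesenchymal genes, COL1A1, which codes for a collagen chain, was in Empty (4.16) and e3KRAB2 (5.43), against 5.31 and 6.11 in the untreated lists, and VIM, an intermediate filament, was in untreated replicate 1 only (4.84).

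**Figure D5:**
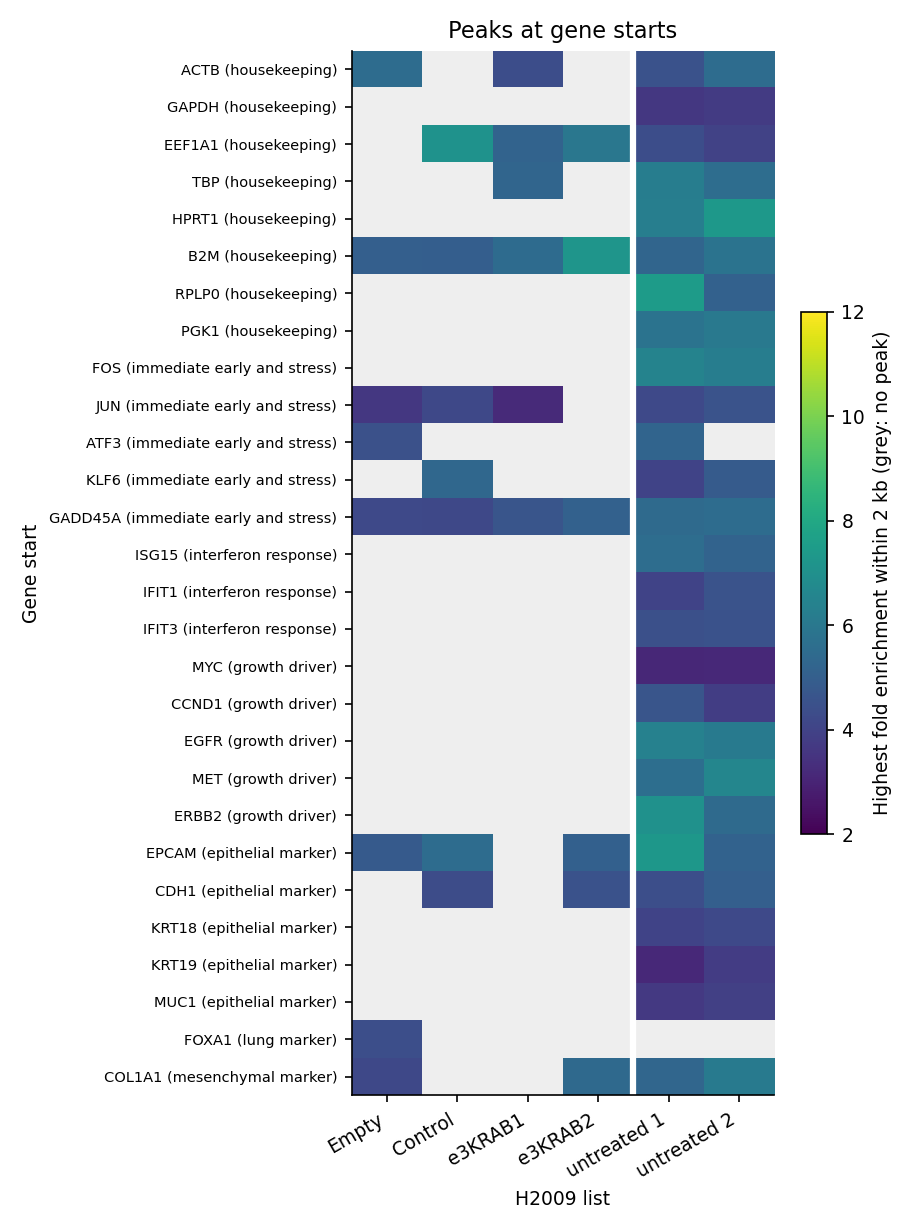
Highest fold enrichment of a peak within 2 kb of a gene's start in each H2009 list, for the 28 of 52 reported genes with a peak in a labelled list or in both untreated lists. Columns are the 4 labelled lists and, right of the white line, the 2 untreated ones, colour is the authors' fold and grey means no peak; B2M and GADD45A are filled in all 6 columns.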

How the data were processed

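H3K27ac was measured by chromatin immunoprecipitation and sequencing in 12 libraries, of which 6 from H2009 are compared here; groups follow the labels. Reads were aligned with BWA to hg19, per the submitters' processing notes; for the caller of the peaks, its version, its control and any pooling, the sources used here give nothing. Each deposited narrowPeak list gives per peak a score (10 times its −log10 q, cut to a whole number), a fold ratio over the local background, −log10 of both the p-value and the q-value, and a summit offset; all are the authors' values and describe a peak within its own list. The 5-column and broadPeak lists of other lines, with a deposited score or fold ratio per peak, were used for position only.

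Peaks off chromosomes 1 to 22 and X were left out (63 over 6 lists). Peaks overlapping by at least 1 bp were merged; an untreated region's fold and −log10 q are the mean over both replicates of the highest peak in it. Regions are not replicates, so shares carry a Wilson interval (95%) and no p; 4 library-level values were tested by exact permutation over libraries with Benjamini-Hochberg adjustment. Shares "from the deciles" apply the recovery of each −log10 q decile to the regions of an arm or window, and differences within a decile are not accounted for. Regions named are the 8 tallest by untreated fold in all 4 labelled lists and in none, the 5 lowest in all 4, and up to 10 absent from the untreated lists; genes came from lists by known function, of which some are not reported here, including some with labelled peaks, so counts cover the reported genes only. The region of highest −log10 q, the window, the 5 Mb distance and the width class of 530 to 560 bp were chosen after values were seen. The members and lists were chosen with earlier results of these data known. Python 3.11.15 with numpy 2.4.6, pandas 2.3.3, scipy 1.17.1 and statsmodels 0.14.6 was used, and the scripts were tested on simulated lists.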

Additional observations from a re-analysis of the deposited data

How the results depend on the processing

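Every difference between regions in all 4 labelled lists and in none kept its sign under the alternatives run. The share in at least 1 labelled list, 26.7%, was 25.9% when 50% of the shorter interval had to overlap, 24.7% with the higher-ranked 50% of each list and 17.8% with labelled lists of equal length; the share in all 4, 1.28%, was 1.12% and 0.819% under the last 2 of these and 1.06% without near peaks, an alternative chosen after seeing the data. The share of labelled regions absent from the untreated lists, 10.4%, was 14.2%, 16.1% and 8.45% under the same first 3 settings, 17.6% with summit windows of 100 bp and 9.03% without near peaks, and the 111 absent regions in at least 2 lists became 46 without near peaks. Between all 4 and none, the fold difference of 2.11 was 1.58 with the higher-ranked 50%, 2.21 with equal length and with the value of replicate 1 alone; the −log10 q difference of 8.66 was 9.85 with equal length and 9.44 with the value of replicate 1 alone; the width difference of 311 bp was 324, 198 and 276 bp under those 3 settings, 327 bp with summit windows and 339 bp without near peaks. The difference in median fold per list, -0.0582, was 0.00175 among peaks with −log10 q of at least 5, and the cause was not tested.

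Leaving out 1 library at a time gave 18.3% to 24.6% in at least 1 list, 0.811% to 2.58% in all lists left, 9.28% to 17.4% absent, 79 to 153 absent regions in at least 2 lists, differences of 1.80 to 2.56 in fold, 6.81 to 10.1 in −log10 q and 262 to 372 bp in width, 0.0607 to 0.0701 in Jaccard index, -24766.2 to -24141.2 peaks per list, -17.8 to -11.2 bp in median width and -0.109 to -0.00206 in median fold. Without untreated replicate 1 or 2 the share in all 4 lists was 0.859% and 0.811% and the absent share 15.9% and 17.4%. Without Empty, Control, e3KRAB1 or e3KRAB2 the share in the 3 lists left was 2.04%, 1.63%, 1.84% and 2.58%. No paired analysis was possible because the labelled groups have 1 library each and share no 2 replicate numbers with the untreated group. Lists hold no read numbers, so a lost peak cannot be told apart from a shallow library.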
